A study of Drosophila melanogaster with 90 samples.

Results

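CG11741 (FBgn0040531) and CG16898 (FBgn0034480) are a pair of annotated protein-coding genes of Drosophila melanogaster, and their RNA was followed in female heads over the first 24 h after mating. They are 2 of the 9027 genes of the deposited gene count table, and both passed the filter on low counts that left 9024 genes for testing. They were chosen by their levels at 0.5 to 4 h after mating. Early levels differed from those of virgins in females mated to either kind of male. The choice used above all the comparison of females mated to Sex Peptide null males with virgins at 2 h. The values at 0.5 to 4 h are therefore described here without a test. The values at 5 to 24 h were not used for that choice and were tested.

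Sex Peptide is a small peptide of the male accessory gland that is transferred with the seminal fluid. It acts through the Sex Peptide receptor, a G protein-coupled receptor on sensory neurons of the female reproductive tract, and it binds to stored sperm, from which it is released gradually. Females that receive it lay more eggs and reject further males for days, whereas females mated to males without it receive sperm and the other seminal proteins but show only a short response. The annotation used here gives neither CG11741 nor CG16898 a name beyond its number, and no role is assigned to them here.

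Canton-S females were either mated to wildtype males (wildtype-mated), mated to Sex Peptide null males (SP-null-mated) or left as virgins frozen in parallel. Mating took place in a morning window that opened at lights on, in a cycle with equal light and dark, and heads were taken at 10 times, hourly between 1 h and 6 h and also at 0.5, 8, 12 and 24 h. The whole series was repeated 3 times, as repeats A, B and C, and 87 libraries of 90 samples were analysed, so that 27 of the 30 groups had 3 libraries and 3 had 2. The groups of 2 were virgins at 6 h and wildtype-mated females at 2 h and 3 h, whose repeat C was not analysed here. The age of the females, the number of heads per library and the strain of the males beyond the state of the Sex Peptide gene were not given in the sources used here. All libraries came from whole heads, in which fewer cells of a type and less RNA per cell cannot be told apart.

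Library totals ranged from 15411046 to 103387056 counts. The largest total belonged to repeat A of the wildtype-mated heads at 24 h, and the next largest was 41097870. Repeats C and A of wildtype-mated heads at 24 h also stood apart on the second principal component of all libraries, with scores of -33.71 and -23.79, so values with and without 24 h are given below. Both genes were low in heads, with a mean TMM log2 CPM (log2 of counts scaled to a common library size by the trimmed mean of M values) of 2.74 for CG11741 and 2.98 for CG16898. Of the genes tested, 17.1% were lower than CG11741 and 19.99% were lower than CG16898. Raw counts per library ran from 18 to 1475 for CG11741 and from 26 to 812 for CG16898. Variation between repeats was wide in both, with a biological coefficient of variation of 0.332 for CG11741 and 0.263 for CG16898, against a median of 0.0679 over all genes.

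In the BDGP6 (dm6) annotation CG11741 lies on the minus strand of 3R at 8528423 to 8528877. It has 1 exon, 455 exonic bases and a coding sequence of 67 codons. CG16898 lies on the minus strand of 2R at 20003620 to 20005003, with 2 exons, 1325 exonic bases and 407 codons. No annotated gene overlaps either of them. The nearest annotated genes were CG31259, at 1755 bases, and lncRNA:CR45575, at 16807 bases, for CG11741, and tRNA:Arg-CCT-1-3, at 2728 bases, and lncRNA:CR44628, at 2091 bases, for CG16898. All 4 neighbours lie on the plus strand and were not analysed here. Per kilobase of exon, the median level of CG11741 over all times was 25.6 CPM in wildtype-mated heads, 12.4 CPM in SP-null-mated heads and 9.32 CPM in virgin heads. The same measure for CG16898 was 3.38 CPM per kilobase in wildtype-mated heads, 7.42 CPM in SP-null-mated heads and 8.63 CPM in virgin heads. These medians pool all 10 times, over which both levels varied.

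From 0.5 to 3 h after mating, the mean of CG11741 was higher in mated than in virgin heads, whichever male had been used. The widest gap was at 2 h. Values below are TMM-scaled CPM of repeats A, B and C in that order. At 0.5 h CG11741 had 18.01, 8.78 and 20.4 CPM in wildtype-mated heads and 20.2, 12.7 and 8.71 CPM in SP-null-mated heads, against 4.64, 9.57 and 11.8 CPM in virgin heads. One hour after mating the values were 16.4, 28.3 and 21.7 CPM in wildtype-mated heads, 23.1, 18.5 and 21.7 CPM in SP-null-mated heads and 11.8, 4.41 and 6.58 CPM in virgin heads. The groups overlapped at 0.5 h, where the SP-null-mated minus virgin log2 fold change of 0.69 ± 0.37 was 0.0022 without repeat A. At 1 h every mated library lay above every virgin library. The share of all genes so separated at a single early time was not computed, and these times are among those that chose the genes. By 2 h the 2 wildtype-mated libraries had 37.6 and 25.8 CPM and the SP-null-mated libraries 28.03, 17.3 and 20.8 CPM, against 3.44, 3.43 and 4.24 CPM in virgin heads. Relative to virgins these levels were 8.56-fold higher after wildtype mating (log2 fold change 3.10 ± 0.41, SE) and 5.97-fold higher after SP-null mating (2.58 ± 0.39). At that time 1.48% of the tested genes were called between wildtype-mated and virgin heads and 4.55% between SP-null-mated and virgin heads, contrasts on which the choice of the genes rested.

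The gap then narrowed, and by 4 h the mated groups had parted. At 3 h CG11741 had 7.07 and 7.35 CPM in wildtype-mated heads and 8.20, 8.94 and 9.60 CPM in SP-null-mated heads, against 4.35, 3.58 and 5.93 CPM in virgin heads. All mated libraries were still above all virgin libraries, with the wildtype-mated ones the lower of the mated groups. At 4 h the levels were 8.58, 10.9 and 5.40 CPM in wildtype-mated heads, 1.58, 1.31 and 2.66 CPM in SP-null-mated heads and 2.73, 2.68 and 4.59 CPM in virgin heads. The wildtype-mated libraries remained above the virgin ones (log2 fold change 1.31 ± 0.42), whereas the SP-null-mated libraries all lay below them (-0.86 ± 0.53). The wildtype-mated and SP-null-mated libraries did not overlap for CG11741 at 4 h, with a log2 fold change of 2.17 ± 0.47, wildtype-mated minus SP-null-mated. Both 3 h and 4 h are among the times that chose the gene, and the share of all genes without overlap at either was not computed. Averaged over 0.5 to 4 h, the log2 fold change against virgins was 1.49 ± 0.18 after wildtype mating and 0.96 ± 0.19 after SP-null mating. Both comparisons use the same virgin libraries.

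**Figure D1:**
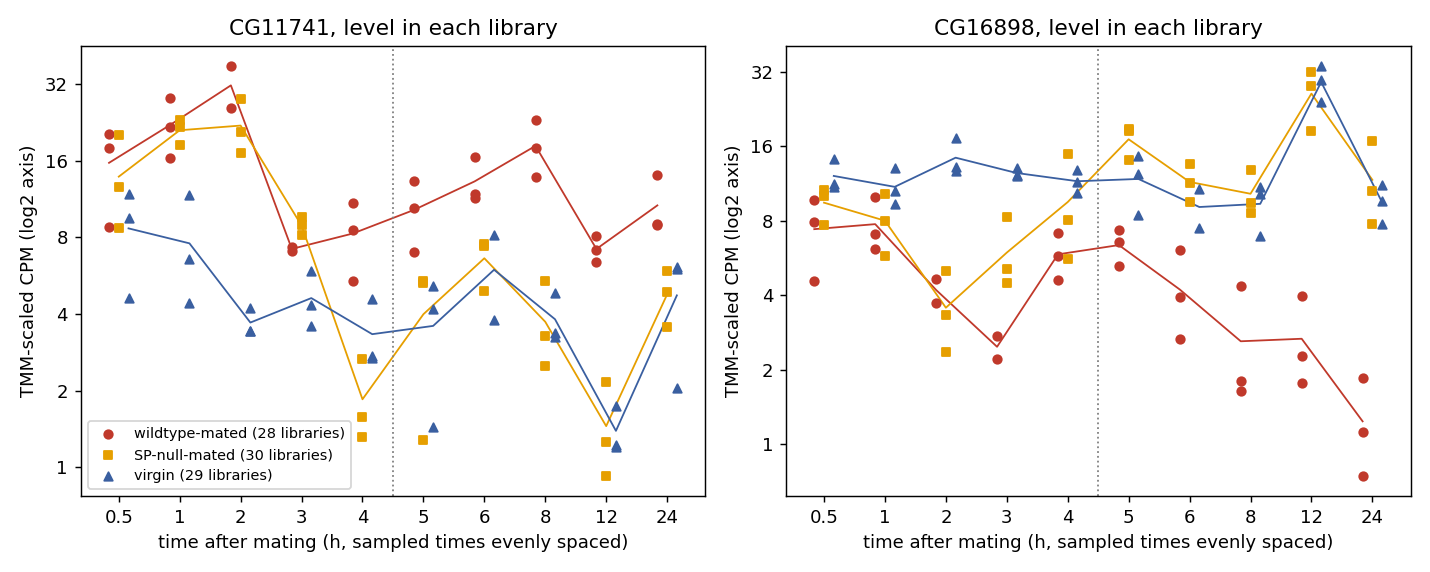
Level of each gene in every library, as TMM-scaled CPM on a log2 axis, against the sampled times after mating, which are spaced evenly. Points are single libraries, lines join group means, and the dotted line separates 0.5 to 4 h, which chose the genes, from 5 to 24 h. After 4 h the wildtype-mated libraries of CG11741 sit between 6.39 and 23.2 CPM and those of CG16898 between 0.747 and 7.35 CPM, while SP-null-mated and virgin libraries intermingle.

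CG16898 showed the opposite sign early on, with lower levels in mated than in virgin heads. At 0.5 h it had 4.58, 7.94 and 9.71 CPM in wildtype-mated heads and 7.67, 10.1 and 10.7 CPM in SP-null-mated heads, against 11.3, 11.0 and 14.2 CPM in virgin heads. The values at 1 h were 7.09, 10.03 and 6.17 CPM in wildtype-mated heads, 5.75, 10.3 and 7.99 CPM in SP-null-mated heads and 13.1, 9.34 and 10.6 CPM in virgin heads. Mated libraries thus lay below all virgin ones at 0.5 h but overlapped with them at 1 h. Here too the share of all genes without overlap was not computed. By 2 h the wildtype-mated libraries had 4.68 and 3.74 CPM and the SP-null-mated libraries 2.35, 5.03 and 3.32 CPM, against 13.2, 17.3 and 12.7 CPM in virgin heads. The 2 h level was 3.42-fold lower than in virgins after wildtype mating (log2 fold change -1.78 ± 0.38) and 4.06-fold lower after SP-null mating (-2.02 ± 0.33).

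At 3 h and 4 h the mean of CG16898 in SP-null-mated heads was nearer to the virgin level than that in wildtype-mated heads. At 3 h the gene had 2.74 and 2.22 CPM in wildtype-mated heads and 5.12, 8.28 and 4.48 CPM in SP-null-mated heads, against 13.04, 12.3 and 12.1 CPM in virgin heads. None of the 3 groups overlapped, and the wildtype-mated heads were lowest, 5.09-fold below virgins (log2 fold change -2.35 ± 0.42). At 4 h the levels were 4.62, 5.79 and 7.18 CPM in wildtype-mated heads, 5.64, 8.09 and 14.9 CPM in SP-null-mated heads and 11.4, 12.9 and 10.4 CPM in virgin heads. The wildtype-mated libraries stayed below the virgin ones, and the SP-null-mated libraries overlapped with both other groups. As at the other early times, no share over all genes was computed for such separation. Over 0.5 to 4 h the mean log2 fold change against virgins was -1.26 ± 0.16 after wildtype mating and -0.84 ± 0.14 after SP-null mating. Over the same times the mated groups differed on this scale by -0.42 ± 0.16 for CG16898 and by 0.53 ± 0.17 for CG11741, wildtype-mated minus SP-null-mated. Neither difference was steady. For CG11741 it was 2.17 ± 0.47 at 4 h and ran from -0.30 to 0.52 at the earlier times. For CG16898 it ran from -1.25 at 3 h to 0.25 at 2 h.

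A description of both genes as independent of Sex Peptide did not cover the late values, at which wildtype-mated and SP-null-mated libraries did not overlap. The strain of the males was not given beyond the Sex Peptide gene, so its part cannot be told apart from that of Sex Peptide. Earlier, the wildtype-mated and SP-null-mated libraries had also not overlapped at 3 h for CG16898 and at 3 h and 4 h for CG11741. At 3 h CG11741 was lower in wildtype-mated than in SP-null-mated heads, opposite to its late difference. Those early values are among the ones that chose the genes, and the share of all genes without overlap at these times was not computed. From 5 h on, CG11741 was higher and CG16898 lower in wildtype-mated heads than in virgin and SP-null-mated heads of the same time. Every wildtype-mated library lay outside the range of the virgin and of the SP-null-mated libraries at each of the 5 late times. SP-null-mated and virgin libraries overlapped at all of these times for both genes. Of all genes tested, 0.831% lay above virgins without overlap at all 5 times in wildtype-mated heads and 0.355% lay below them. The corresponding shares for wildtype-mated against SP-null-mated heads were 0.443% above and 0.277% below, and no gene did so in either direction between SP-null-mated and virgin heads.

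CG11741 at 5 h had 13.3, 7.01 and 10.4 CPM in wildtype-mated heads and 5.29, 5.40 and 1.28 CPM in SP-null-mated heads, against 5.14, 1.43 and 4.20 CPM in virgin heads. Its levels at 6 h were 11.8, 16.6 and 11.5 CPM in wildtype-mated heads, 7.57, 7.38 and 4.92 CPM in SP-null-mated heads and 8.15 and 3.79 CPM in virgin heads. All wildtype-mated libraries were the highest at both times. At 8 h it had 23.2, 13.8 and 18.01 CPM in wildtype-mated heads and 3.28, 2.50 and 5.41 CPM in SP-null-mated heads, against 3.25, 4.84 and 3.35 CPM in virgin heads. The 8 h values were the highest of the late times in wildtype-mated heads and were near the 0.5 h level of that group. At 12 h the gene had 6.39, 7.16 and 8.07 CPM in wildtype-mated heads, 2.16, 0.924 and 1.26 CPM in SP-null-mated heads and 1.22, 1.74 and 1.20 CPM in virgin heads. After 24 h the values were 14.1, 8.95 and 8.999 CPM in wildtype-mated heads and 3.55, 5.90 and 4.87 CPM in SP-null-mated heads, against 2.05, 6.02 and 6.13 CPM in virgin heads. All 3 groups were low together at 12 h, with the wildtype-mated group highest.

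Averaged over 5 to 24 h, CG11741 rose 3.23-fold in wildtype-mated against virgin heads (log2 fold change 1.69 ± 0.19, 95% interval 1.32 to 2.07, adjusted p = 1.61e-10, edgeR quasi-likelihood test with Benjamini-Hochberg adjustment over all genes). In that test 35.5% of all genes were called, 19% as higher and 16.5% as lower, and CG11741 ranked 60 by p. Against SP-null-mated heads it rose 3.11-fold (1.64 ± 0.18, interval 1.27 to 2.00, adjusted p = 1.76e-10), where 25.9% of genes were called and 15.4% were higher. Between SP-null-mated and virgin heads the mean difference was 0.06 ± 0.22, with an interval of -0.38 to 0.49 and an adjusted p of 0.931. No gene passed that last test in edgeR, in which 994 genes had an unadjusted p under 0.05, and DESeq2 called 3. The 3 comparisons share libraries with one another.

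By single time, the edgeR test called CG11741 in wildtype-mated against virgin heads at 8 h (4.77-fold higher, log2 fold change 2.25 ± 0.39, adjusted p = 9.28e-05), where 3.67% of genes were called. It was also called at 12 h, at 5.25-fold (2.39 ± 0.48, adjusted p = 0.000448), beside 6.32% of genes. The call at 5 h (1.48 ± 0.41, adjusted p = 0.0365, 2.67% of genes called) was lost without any one of the repeats, at 1.60 without A (adjusted p = 0.113), 1.32 without B (0.299) and 1.58 without C (0.252). It was also lost in a fit of the late libraries alone, at 1.48 with an adjusted p of 0.0526. The call at 24 h (1.20 ± 0.37, adjusted p = 0.0117, 29.2% of genes called) was lost without repeat A, at 0.55 with an adjusted p of 0.375. At 6 h the difference of 1.14 ± 0.43 did not pass (adjusted p = 0.191, 1.05% of genes called).

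Against SP-null-mated heads, CG11741 was called at 8 h (log2 fold change 2.30 ± 0.39, adjusted p = 6.85e-05) and at 12 h (2.28 ± 0.48, adjusted p = 0.000744), with 5.87% and 9.82% of genes called. The 24 h call (1.22 ± 0.38, adjusted p = 0.0117, 28.3% of genes called) was lost without repeat A, at 0.74 and an adjusted p of 0.258, and without repeat C, at 1.35 and 0.0779. Differences at 5 h (1.38 ± 0.40, adjusted p = 0.0956, 0.754% of genes called) and 6 h (1.01 ± 0.37, adjusted p = 0.12, 3.31% of genes called) did not pass in edgeR. The test of whether the difference changed over 5 to 24 h did not call CG11741 in wildtype-mated against virgin heads (adjusted p = 0.415) or against SP-null-mated heads (adjusted p = 0.232). In SP-null-mated against virgin heads no late time was called for CG11741, with differences from -0.04 to 0.13 and adjusted p values from 0.993 to 0.998.

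**Figure D2:**
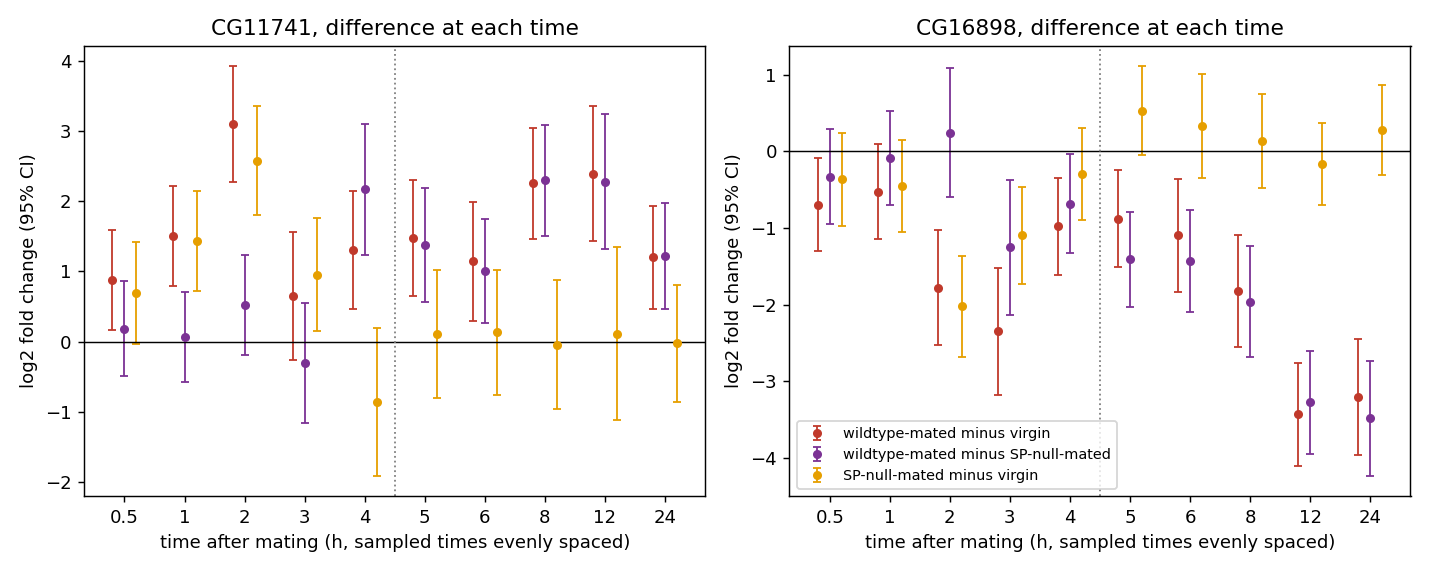
Log2 fold change of each gene at each sampled time, with 95% intervals from the edgeR fit, for the 3 pairs of treatments, where above 0 means higher in the group named before "minus". The dotted line separates 0.5 to 4 h, which chose the genes and carries no test, from 5 to 24 h. At 12 h CG16898 stands at -3.43 for wildtype-mated minus virgin and at -0.16 for SP-null-mated minus virgin.

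CG16898 at 5 h had 5.26, 6.57 and 7.35 CPM in wildtype-mated heads and 14.04, 18.4 and 18.8 CPM in SP-null-mated heads, against 8.43, 12.3 and 14.7 CPM in virgin heads. At 6 h its levels were 3.93, 2.66 and 6.08 CPM in wildtype-mated heads, 11.4, 13.6 and 9.57 CPM in SP-null-mated heads and 7.48 and 10.7 CPM in virgin heads. The wildtype-mated libraries were the lowest at both times, and the SP-null-mated libraries reached above the virgin range. At 8 h the gene had 1.65, 4.38 and 1.81 CPM in wildtype-mated heads and 9.43, 12.9 and 8.61 CPM in SP-null-mated heads, against 10.9, 6.95 and 10.3 CPM in virgin heads. The 12 h values were 1.78, 3.96 and 2.28 CPM in wildtype-mated heads, 18.4, 27.9 and 32.1 CPM in SP-null-mated heads and 29.5, 24.2 and 33.7 CPM in virgin heads. The SP-null-mated and virgin heads thus peaked together at 12 h, and the wildtype-mated heads stayed at their 8 h level. By 24 h CG16898 had 0.747, 1.85 and 1.12 CPM in wildtype-mated heads and 7.76, 16.9 and 10.5 CPM in SP-null-mated heads, against 9.62, 11.1 and 7.77 CPM in virgin heads.

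Over 5 to 24 h CG16898 fell 4.24-fold in wildtype-mated against virgin heads (log2 fold change -2.09 ± 0.16, interval -2.40 to -1.77, adjusted p = 2.45e-16) and ranked 11 by p among all genes. Against SP-null-mated heads it fell 4.96-fold (-2.31 ± 0.15, interval -2.62 to -2.00, adjusted p = 2.57e-18) and ranked 2, in a test that called 10.5% of genes as lower. Between SP-null-mated and virgin heads the mean difference was 0.22 ± 0.13, with an interval of -0.04 to 0.49 and an adjusted p of 0.506. Without 24 h, the mean differences against virgins were 1.82 for CG11741 and -1.81 for CG16898, and against SP-null-mated heads 1.74 and -2.02, and each was still called.

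At 12 h CG16898 was 10.8-fold lower in wildtype-mated than in virgin heads (log2 fold change -3.43 ± 0.33, adjusted p = 2.77e-11, rank 3 by p). It was 9.65-fold lower than in SP-null-mated heads at that time (-3.27 ± 0.34, adjusted p = 3.05e-10, rank 2). At 24 h it was 9.19-fold lower than in virgins (-3.20 ± 0.38, adjusted p = 8.38e-09) and 11.2-fold lower than in SP-null-mated heads (-3.48 ± 0.38, adjusted p = 8.64e-10). The edgeR call at 8 h against virgins (-1.82 ± 0.36, adjusted p = 0.000809) was lost without repeat A (-1.48, adjusted p = 0.0749) and without repeat C (-1.496, 0.142). At 8 h against SP-null-mated heads the difference was -1.96 ± 0.36 (adjusted p = 0.000182).

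At the earlier of the late times, the calls of CG16898 did not all hold with a repeat left out, though the direction stayed the same. Against SP-null-mated heads it was called at 5 h (-1.41 ± 0.31, adjusted p = 0.0121) and 6 h (-1.43 ± 0.33, adjusted p = 0.00616). The edgeR call at 5 h was lost without any one of the repeats, at -1.41 without A (adjusted p = 0.193), -1.38 without B (0.0944) and -1.45 without C (0.156). That at 6 h was lost without repeat B (-1.06, adjusted p = 0.22). Against virgins the differences at 5 h (-0.88 ± 0.32, adjusted p = 0.14) and 6 h (-1.10 ± 0.37, adjusted p = 0.142) did not pass. In SP-null-mated against virgin heads no late time was called for CG16898, with differences from -0.16 to 0.53 and adjusted p values from 0.833 to 0.998. Of all genes that comparison called 0.0111% at 5 h, the same share at 8 h and 0.0554% at 24 h. It called 0 genes at 6 h and 12 h in edgeR and in DESeq2, with 456 genes at 6 h and 339 at 12 h having an unadjusted p under 0.05.

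The size of the difference changed over 5 to 24 h for CG16898, both in wildtype-mated against virgin heads (F = 11.4, adjusted p = 0.000231, 3.58% of genes called) and against SP-null-mated heads (F = 8.21, adjusted p = 0.00197, 9.71% of genes called). The first edgeR call was lost without repeat A (adjusted p = 0.0675) or C (0.0567), and the second without repeat C (0.148) or without 24 h (0.0806). Between 8 h and 12 h, CG16898 differed by a log2 fold change of 0.03 ± 0.42 in wildtype-mated heads, 1.34 ± 0.29 in SP-null-mated heads and 1.64 ± 0.29 in virgin heads, 12 h minus 8 h. Over the same interval CG11741 differed by -1.34 ± 0.36 in wildtype-mated heads, -1.32 ± 0.53 in SP-null-mated heads and -1.48 ± 0.53 in virgin heads. These intervals between 8 h and 12 h were picked after the values had been seen and carry no test.

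Both genes also changed with time over 5 to 24 h in virgins, which were frozen alongside the mated females through the day and into the first hours of darkness at 12 h. CG11741 in virgin heads averaged 1.39 ± 0.305 CPM at 12 h (SD, n = 3), its lowest time, and 5.97 ± 3.08 CPM at 6 h (SD, n = 2), its highest of the 5 late times. That is a range of 1.95 on the log2 scale (adjusted p = 0.0195, edgeR F test over 5 to 24 h, 20.4% of all genes called). The call was lost without repeat A (adjusted p = 0.121) and without repeat C (0.194). CG16898 averaged 29.1 ± 4.77 CPM at 12 h (SD, n = 3), against 9.10 ± 2.30 CPM at 6 h (SD, n = 2), a range of 1.68 (adjusted p = 1.23e-06, edgeR), and its call held without any one repeat. At 0.5 h, among the virgin values that entered the choice of the genes, CG11741 averaged 8.68 ± 3.68 CPM and CG16898 12.2 ± 1.77 CPM (SD, n = 3 each).

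**Figure D3:**
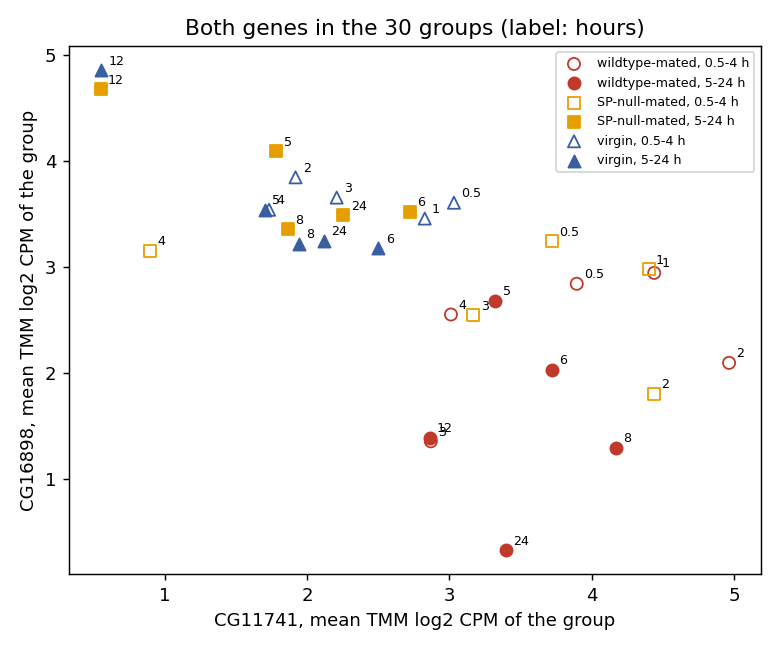
Mean TMM log2 CPM of CG16898 against that of CG11741 in each of the 30 groups of 2 or 3 libraries, with the hours after mating beside each symbol, open symbols for 0.5 to 4 h and filled symbols for 5 to 24 h. The late wildtype-mated groups lie at the lower right, and the late SP-null-mated groups lie among the virgin groups, with the 12 h groups of both at the upper left.

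Every late wildtype-mated group had a mean of CG16898 below that of every virgin group at any time, and a mean of CG11741 above that of every late virgin group. Within 5 to 24 h, the median of CG11741 was 11.5 CPM in wildtype-mated heads (range 6.39 to 23.2), 4.87 CPM in SP-null-mated heads (0.924 to 7.57) and 3.57 CPM in virgin heads (1.20 to 8.15). For CG16898 the late medians were 2.66 CPM in wildtype-mated heads (0.747 to 7.35), 13.6 CPM in SP-null-mated heads (7.76 to 32.1) and 10.8 CPM in virgin heads (6.95 to 33.7). In both genes the wildtype-mated group stood at one end of the order, and the neighbouring SP-null-mated and virgin groups did not differ beyond their spread. Within late wildtype-mated heads, CG11741 was at its highest mean at 8 h and CG16898 at its lowest at 24 h.

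The genes whose profile was most like that of each member were taken by Pearson r of group mean log2 CPM over the 30 groups, among 8693 other genes. The groups share libraries' batches, times of day and treatments, so these r values only describe likeness. For CG11741 they were CG3036 (r = 0.91), CG10512 (0.91), Kr-h1 (0.90), CG5346 (0.89) and Sk1 (0.85). Kr-h1 encodes a zinc-finger transcription factor induced by juvenile hormone, and Sk1 a sphingosine kinase. Over the 87 libraries the r values were lower, from 0.72 for Sk1 to 0.86 for CG3036. For CG16898 they were fusl (0.88), Nop17l (0.85), Nepl6 (0.85), CG9664 (0.85) and prc (0.83), where prc encodes pericardin, a protein of the extracellular matrix, and Nepl6 a neprilysin-like protein. Over libraries these ran from 0.60 for prc to 0.86 for fusl.

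Late after wildtype mating the 10 similar genes moved in the direction of their member but less far. Kr-h1 rose by a mean log2 fold change of 0.80 over 5 to 24 h in wildtype-mated against virgin heads, as did CG3036 (0.80), while CG10512, CG5346 and Sk1 rose by 0.34, 0.28 and 0.25. Nop17l and prc fell by 0.46 and 0.39, and fusl, Nepl6 and CG9664 by 0.69, 0.52 and 0.56. All 10 were called by edgeR in that comparison, which called 35.5% of all genes, and in wildtype-mated against SP-null-mated heads, which called 25.9%. None of the 10 was called in SP-null-mated against virgin heads (adjusted p from 0.319 to 0.965), where edgeR called no gene at all. Their choice used the late groups too, so these calls are given as a description.

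**Figure D4:**
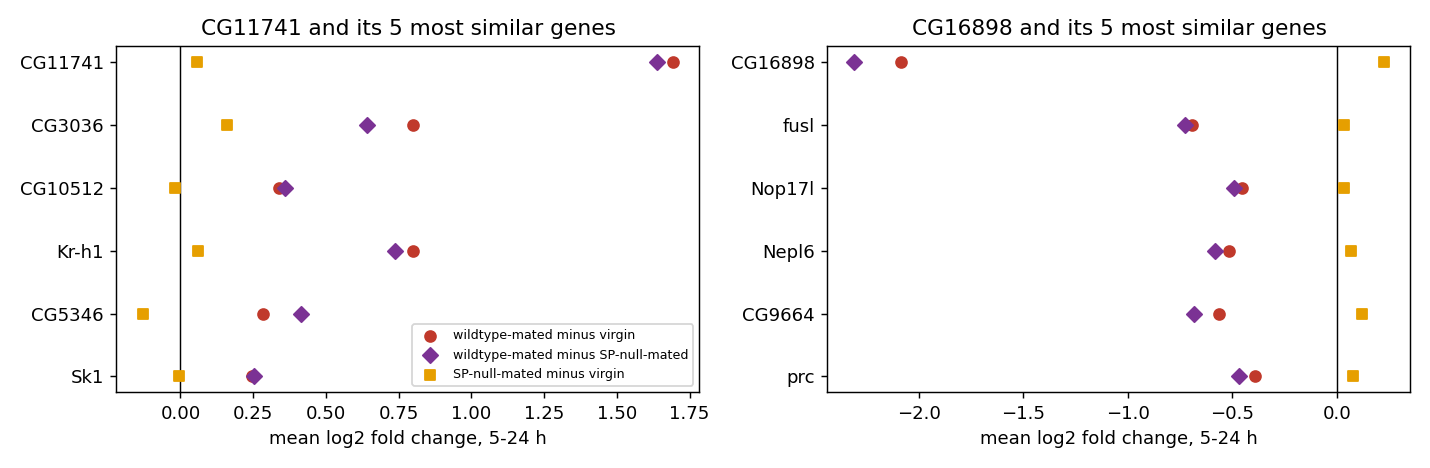
Mean log2 fold change over 5 to 24 h of CG11741 and CG16898 and of the 5 genes most similar to each, for the 3 pairs of treatments, each point being the estimate of the edgeR fit. The points of the pairs with wildtype-mated heads lie to the right of 0 for CG11741 and its similar genes and to the left for CG16898 and its similar genes, and CG11741 (1.69) and CG16898 (-2.09) are the farthest from 0 in their panels for wildtype-mated minus virgin.

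Of 8 core clock genes, all measured, 2 rose over 5 to 24 h in wildtype-mated against virgin heads, Clk (log2 fold change 0.58) and cwo (0.21), and 2 fell, per (-0.36) and cry (-0.09). Clk and cwo encode transcription factors of the clock, per a repressor within its feedback loop and cry the blue-light photoreceptor. In this test 35.5% of all genes were called, and 4 of 8 is little different from that share. The list's median was -0.06 and that of all genes 0.01. Against SP-null-mated heads, where 25.9% of all genes were called, Clk (0.52) and cwo (0.19) rose and per (-0.26) fell, with a median of -0.05. In SP-null-mated against virgin heads edgeR called no gene at all, and so none of these 8 or of any list below. Of 3 activity-regulated genes, kay, which encodes the fly Fos protein, fell against virgins (-0.19), and none was called in either of the other pairs. The median of these 3 against virgins was -0.01.

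In wildtype-mated against virgin heads and against SP-null-mated heads, every cell type marker measured differed by less than either gene over the same times. Neuron (elav, nSyb, Syt1, brp), photoreceptor (ninaE, trp, ninaC, norpA) and muscle markers (Mhc, up, Act88F, Mlc2) had 0 of 4 called in each list in every pair, and hemocyte markers 0 of the 2 measured. Of 4 glial markers, alrm rose (0.18) and repo (-0.21) and moody (-0.08) fell in wildtype-mated against virgin heads, and repo and moody fell against SP-null-mated heads, in tests that called 35.5% and 25.9% of all genes. Of 6 fat body markers, Yp2, a yolk protein, rose by 0.58 and apolpp, the lipid carrier precursor, by 0.32 against virgins, and Yp2 rose by 0.40 against SP-null-mated heads. The 2 of 6 called against virgins are no more than the share over all genes. Summed fat body markers at 5 to 24 h ran from 104107 to 205548 CPM in wildtype-mated heads, from 93451 to 185354 CPM in SP-null-mated heads and from 77722 to 171045 CPM in virgin heads, so the groups overlapped. Summed glial markers ran from 587 to 725 CPM in wildtype-mated heads, from 633 to 753 CPM in SP-null-mated heads and from 623 to 714 CPM in virgin heads. Median log2 fold changes of wildtype-mated against virgin heads were 0.17 for fat body, 0.09 for hemocyte, -0.01 for neuron, -0.03 for glial and -0.10 for muscle markers, and 0.0028 for photoreceptor markers. The part of these cell types in the levels of CG11741 and CG16898 was not tested.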

How the data were processed

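Raw read counts of genes and exon bins were deposited by the authors, 1 column per library, matched to samples by treatment, time and repeat in the header. The submitters' processing notes name Trimmomatic 0.39, STAR 2.7.5a, HTSeq 0.11.2, edgeR and the builds dm6 and BDGP6. Not given in the sources used here are the strand setting, annotation release and feature filter. CG11741, CG16898, the gene lists and the tests were chosen with earlier results of these data known.

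Counts were fitted in R 4.3.3 with edgeR 4.0.16 (TMM, filterByExpr with minimum count 10 and total 15, robust quasi-likelihood, 1 mean per group). P values were adjusted by Benjamini-Hochberg within each test, and genes under 0.05 are called. The log2 CPM prior count was 2, and a standard error is the absolute log2 fold change over the square root of F. Named genes were both members, the 5 most similar genes to each (mean log2 CPM of at least 1), their annotated neighbours and called genes of the clock, activity and marker lists. Of midgut markers none, and of hemocyte markers He, was analysed here. Symbols matched 8977 of 9027 gene identifiers. The test was also run on simulated counts drawn independently for each library, which says nothing on effects shared by libraries of a repeat.

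No libraries were near-identical (lowest chi-square per degree of freedom 6.68). Repeat letters pair samples, as the design text calls them repeats of the entire series. Same-letter deviations correlated from -0.229 to 0.335, and 36 of 84 pairs exceeded 0.1. Alternatives were the repeat as a block, DESeq2 1.42.0, RLE size factors, no filter, subsets of libraries and each repeat left out.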

Additional observations from a re-analysis of the deposited data

Results flagged for a closer look

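The difference of CG16898 between wildtype-mated and virgin heads was not the same at all late times (edgeR F test of 4 contrasts over 5 to 24 h, adjusted p = 0.000231). The log2 difference was -0.88 at 5 h and -1.10 at 6 h, then -1.82 after 8 h, and it reached -3.43 by 12 h and -3.20 by 24 h. The same held against SP-null-mated heads (adjusted p = 0.00197), with log2 differences of -1.41, -1.43, -1.96, -3.27 and -3.48 in the same order of times. The 2 tests share the wildtype-mated libraries.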

How the results depend on the processing

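Of 686 alternative values, 646 kept their direction and side of the threshold or moved by less than the spread, and the cause of the other changes was not tested. The mean late differences of both genes kept direction and call in every alternative run, from 1.68 to 1.82 for CG11741 and from -1.81 to -2.28 for CG16898 in wildtype-mated against virgin heads. With the repeat as a block they were 1.69 and -2.09, and 1.64 and -2.30 against SP-null-mated heads, and the replicate block changed no call of either gene. Leaving out each repeat in turn gave a log2 range for CG11741 in virgins of 1.86 to 2.67 over 5 to 24 h, alternatives chosen after seeing the data as were those without 24 h, and of 2.23 to 2.79 over all 10 times. The uncalled differences of SP-null-mated against virgin heads changed sign with a repeat left out, running for CG11741 from -0.51 to 0.65 at 5 h, -0.39 to 0.69 at 6 h, -0.48 to 0.39 at 8 h, -0.40 to 0.51 at 12 h and -0.19 to 0.14 at 24 h (0.0067 in DESeq2). For CG16898 they ran from -0.22 to 0.34 at 8 h and -0.33 to 0.0507 at 12 h. Counts over all genes moved more. Genes with any late difference numbered 2711 in wildtype-mated against virgin heads (1135 without 24 h, 1061 to 1623 with a repeat left out) and 2886 against SP-null-mated heads (1343, and 1339 to 1634). In SP-null-mated against virgin heads there was 1, with 15 in DESeq2, 2 with the repeat block and 0 with any one repeat left out. Calls summed over single late times were 3875 in wildtype-mated against virgin heads (1237 without 24 h, 1172 to 2887 with a repeat left out), 4333 against SP-null-mated heads (1783, and 1602 to 2787) and 7 in SP-null-mated against virgin heads. That last sum was 24 in DESeq2, 21 with the repeat block, 3 in late libraries alone, 2 without 24 h and 0 to 1 with a repeat left out. With 2 or 3 libraries a group and both genes variable between repeats, differences at 1 time had intervals of over 1 on the log2 scale.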

Other observations

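The deposited exon table held 1 bin of CG11741 and none of CG16898. That bin carried a median of 9.76% of the gene's counts in wildtype-mated heads at 5 to 24 h, 9.82% in SP-null-mated heads and 9.99% in virgin heads. At 0.5 to 4 h the medians were 9.28% in wildtype-mated heads, 8.70% in SP-null-mated heads and 10.5% in virgin heads.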
